A study of Mus musculus with 30 samples.

Results

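The genes described here encode the proteins of epithelial cell junctions and of apical polarity in the embryonic mouse pancreas. They were taken from a list of 42 genes, of which 41 had a probe set and 1, Cldn9, was not analysed here. The 41 genes stood among 15944 genes measured in all. Every probe set annotated to 1 gene symbol, that of a member, was kept, 90 in all, and a gene with several was read from the brightest, judged by the mean of the 10 arrays of its chip. The listing rule uses function and no measured value, but the list was drawn up with earlier results of these data known.

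The samples were dorsal pancreata of NMRI mice, an outbred stock, taken at 5 stages of embryonic life: e12.5, e13.5, e14.5, e15.5 and e16.5, in days after mating. The embryos carried no stated genetic change and received no stated treatment. Dorsal pancreata were pooled by litter and each pool was labelled with biotin in 2 reactions, and every reaction went onto all 3 chips, A, B and C, of the Affymetrix MG-U74v2 set, for 30 arrays. How many litters or embryos a pool holds is not stated. Each stage is thus 1 pool, the spread between its reactions is technical, and a stage and its pool cannot be told apart. The tissue was whole, so for every gene below fewer cells of a type and less RNA per cell cannot be told apart.

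Epithelial cells are held together by junctions that differ in make-up and task. Tight junctions, built from claudins, occludin and junctional adhesion molecules on a scaffold of zonula occludens proteins and cingulin, seal the space between cells and set which ions cross it. Adherens junctions join cadherins to the actin cytoskeleton through catenins, desmosomes join their own cadherins to intermediate filaments, and gap junctions are channels of connexins that couple the cytoplasm of neighbours. The Par complex, made of Pard3, Pard6 and an atypical protein kinase C, and the Crumbs complex mark out the apical side of the cell. In the pancreas these days are known as the time when the epithelium forms lumens, branches, and separates into acini, ducts and endocrine cells.

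Junction genes of epithelia are known targets of repressors of the Snail and Zeb families, which bind the E-box CACCTG, and of grainyhead factors, whose core motif is ACCGGT. RefSeq promoter windows on GRCm38.p6, 250 bases before to 50 after a transcript start, matched 31 of the 41 members; Cldn8, Cdh1, Cdh2, Cdh3, Cdh11, Ctnna1, Dsg2, Dsc2, Pkp1 and Pkp2 had none in the table. Each motif was searched on both strands, so that CAGGTG counts as the E-box; the grainyhead core reads the same on both, and these letters cannot overlap those of the E-box. The E-box stood in a window of 16 of the 31 members (51.6%) and of 22.6% of 27025 genes with a window. By window, it was found in 20 of 45 member windows (44.4%) and in 20.2% of 32851 windows. The core ACCGGT was held by 2 members, Epcam and Spint1 (6.45%), and by 2.68% of genes. A match is a description of letters and no evidence of binding.

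The 250 bases before a start are shown for 4 members, with both motifs in capitals. Crb3 had the most E-boxes of any member, with 4 in its window, and Epcam held both motifs. The last E-box of Crb3 and that of Cldn4 lie after the start and are not among the bases shown. Cldn4 and Tjp3 are members with an E-box whose levels dropped by over 1.5-fold from e15.5 to e16.5. Cldn3 and Cldn6 also had an E-box and such a drop and are not shown. A link between motif and level was not tested. Crb3 lies on chromosome 17, with the bases shown at chr17:57061951-57062200 on the plus strand; those of Epcam are at chr17:87635729-87635978, also plus. Cldn4 is read on the minus strand at chr5:134946935-134947184, and Tjp3, also minus, at chr10:81291582-81291831.
Crb3: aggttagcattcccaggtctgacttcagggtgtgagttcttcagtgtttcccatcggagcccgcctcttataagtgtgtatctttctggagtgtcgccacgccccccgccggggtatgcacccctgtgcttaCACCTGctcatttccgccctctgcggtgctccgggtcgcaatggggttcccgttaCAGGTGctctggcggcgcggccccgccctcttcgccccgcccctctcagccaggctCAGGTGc
Epcam: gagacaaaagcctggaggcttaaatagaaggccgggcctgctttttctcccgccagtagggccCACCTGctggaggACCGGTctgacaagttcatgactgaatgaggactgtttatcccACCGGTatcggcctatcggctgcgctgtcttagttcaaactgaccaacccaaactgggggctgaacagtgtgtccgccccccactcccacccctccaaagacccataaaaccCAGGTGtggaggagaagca
Cldn4: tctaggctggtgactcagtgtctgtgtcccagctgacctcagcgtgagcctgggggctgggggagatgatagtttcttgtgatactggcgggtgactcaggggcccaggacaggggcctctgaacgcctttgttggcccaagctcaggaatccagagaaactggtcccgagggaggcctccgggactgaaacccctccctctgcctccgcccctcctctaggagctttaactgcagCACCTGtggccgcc
Tjp3: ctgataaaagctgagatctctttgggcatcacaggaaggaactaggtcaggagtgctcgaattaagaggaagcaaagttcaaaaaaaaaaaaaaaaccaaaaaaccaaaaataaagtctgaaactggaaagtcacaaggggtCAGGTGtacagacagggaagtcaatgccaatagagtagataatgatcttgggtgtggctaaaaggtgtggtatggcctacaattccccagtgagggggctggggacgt

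The 16 members with an E-box had no common course over the stages. Of these, Crb3, Gjb1, Gjb2 and Prkcz rose, Cldn6 and Pard3 fell, and the other 10, Cldn3, Cldn4, Cldn7, Dsp, Epcam, F11r, Ocln, Pard6b, Spint2 and Tjp3, did not pass the test of the stage trend described next.

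Values are log2 expression values, in which a difference of 1 is a 2-fold change. Within a chip the reactions of 1 pool had correlations of 0.996 to 0.998 across probe sets. The SD between the reactions had a median of 0.05 over the members and stages and reached 0.23 at most, for Cdh2 at e12.5. Representative probe sets of 6 members (Cldn1, Cldn2, Cldn8, Cldn11, Cdh11 and Spint2) had means below the median of their chip, where changes can be understated; the files hold no detection calls. Levels of different probe sets are not comparable, so each gene is compared with itself. A gene was said to rise or fall where a straight line through its 5 pool means had a slope with a limma adjusted p under 0.05. The p-values were adjusted by the Benjamini-Hochberg method over all 36701 probe sets. The change given is the slope times 4 days ± its SE, n = 5 pools. With a pool left out, the slope was multiplied by 4 days as well. Without the e12.5 or the e16.5 pool the change thus reaches beyond the stages fitted and is no measured difference.

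Over the 4 days 6 members rose, which is 14.6% of the members against 11.9% of all genes. A fall was called for 10 members, 24.4% against 17% of all genes, and 25 did not pass. The median change was 0.15 over the members and 0.02 over all genes. The genes that rose were the connexins Gjb1 and Gjb2, the claudin Cldn10, E-cadherin (Cdh1), and the polarity genes Crb3 and Prkcz. Those that fell were N-cadherin (Cdh2), P-cadherin (Cdh3), Cdh11, Ctnna1, Cldn6, Cldn12, Tjp1, the connexin Gja1, Pard3 and Prkci. Of the 16 calls, that of Cdh2 held with each of the 5 pools left out in turn, and the other 15 were each lost without at least 1 pool, as given beside them.

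**Figure D1:**
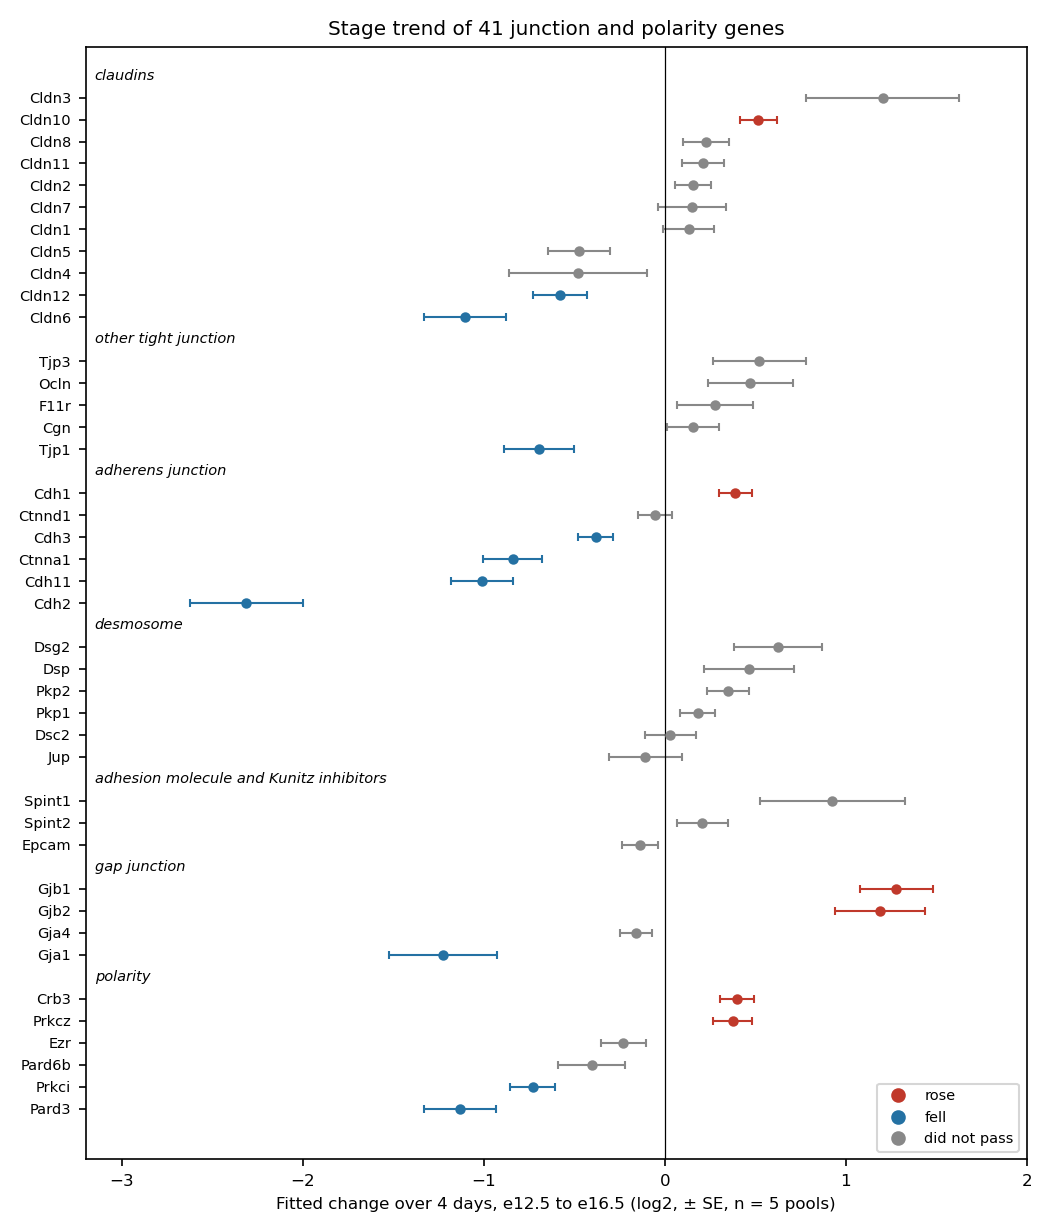
Fitted change over 4 days (log2, horizontal axis, bars ± SE, n = 5 pools) of the 41 members, grouped by role and coloured by whether the slope rose, fell or did not pass. The 6 members that rose lie between 0.38 and 1.28, and the 10 that fell between -0.38 and -2.31.

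Claudins form the barrier and the ion pores of the tight junction. Of 11 measured, 1 rose (11.9% of all genes did), 2 fell (17% did) and 8 did not pass. Cldn10, an ion-selective pore claudin, read 7.02 and 7.11 at e12.5, 7.33 and 7.30 at e13.5, 7.37 and 7.33 at e14.5, 7.43 and 7.46 at e15.5, and 7.61 and 7.68 at e16.5. Every later reaction stood above both of e12.5, and the fitted rise was 0.52 ± 0.10 (limma adjusted p = 0.0103). Leaving out the e12.5 pool (0.43, adjusted p = 0.0784) or that of e16.5 (0.47, adjusted p = 0.0959) lost the call.

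Cldn6, a claudin of embryonic epithelia, read 9.78 and 9.55 at e12.5, 9.54 and 9.62 at e13.5, 9.52 and 9.50 at e14.5, 9.25 and 9.26 at e15.5, and 8.44 and 8.46 at e16.5. The last step was the largest: from e15.5 to e16.5 the level dropped by 0.81 on the log2 scale. Its fitted change was -1.10 ± 0.23 (limma adjusted p = 0.0116), and -0.52 without the e16.5 pool (adjusted p = 0.0734). A second probe set of Cldn6, on chip A, had pool means of 8.65, 9.08, 8.99, 8.30 and 6.91 from e12.5 to e16.5 and did not pass (-1.70 ± 0.56, adjusted p = 0.0713), with its drop in the same last step.

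Cldn12 read 8.08 and 8.11 at e12.5, 8.26 and 8.34 at e13.5, 8.03 and 8.17 at e14.5, 7.76 and 7.97 at e15.5, and 7.58 and 7.60 at e16.5. Its highest stage was e13.5 and both e16.5 reactions were the lowest of the 10. The single probe set of Cldn12 is marked as incomplete. The change was -0.58 ± 0.15 (limma adjusted p = 0.027); it missed the threshold without the e13.5 pool (-0.48, adjusted p = 0.0641) or the e16.5 pool (-0.36, adjusted p = 0.249).

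Cldn3, a sealing claudin of simple epithelia, had the largest excursion of the claudins without passing the line test. It read 7.10 and 7.19 at e12.5, 7.97 and 8.04 at e13.5, 8.37 and 8.55 at e14.5, 8.86 and 8.82 at e15.5, and 8.17 and 8.30 at e16.5. The e15.5 pool mean was 3.24-fold that of e12.5, and the step to e16.5 was a 1.52-fold drop. The slope over all stages was 1.20 ± 0.42 (limma adjusted p = 0.082), and 2.22 ± 0.21 without the e16.5 pool (adjusted p = 0.00395). A dimmer probe set of Cldn3, whose suffix marks a sequence shared with other transcripts, rose by 0.60 ± 0.14 (adjusted p = 0.0242).

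Cldn4, which lies 39279 bases from Cldn3 on chromosome 5 (GRCm38.p6: Cldn4 at 134945123 to 134946934, Cldn3 at 134986214 to 134987476), turned a day earlier. It read 7.03 and 6.97 at e12.5, 7.37 and 7.42 at e13.5, 7.59 and 7.71 at e14.5, 7.23 and 7.03 at e15.5, and 6.39 and 6.67 at e16.5. Both e14.5 reactions were the highest and both e16.5 reactions the lowest, with no overlap, and a line gave -0.48 ± 0.38 (limma adjusted p = 0.392). At e15.5 the pool mean of Cldn3 was at its highest while that of Cldn4 had dropped by 0.52 on the log2 scale from its e14.5 mean.

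The other claudins did not pass. Cldn7, a claudin of the lateral membrane, had pool means of 8.54, 8.69, 8.87, 9.01 and 8.56 on a probe set marked as incomplete. Its slope without the e16.5 pool was 0.65 ± 0.10 per 4 days (limma adjusted p = 0.0092). Cldn5, the main claudin of endothelium, had a slope of -0.47 ± 0.17 (adjusted p = 0.0888). The dim probe sets of Cldn1, the cation-pore claudin Cldn2, Cldn8 and the myelin claudin Cldn11 had slopes between 0.13 and 0.23. For Cldn8 both other probe sets, on chip B, rose (0.73 ± 0.13, adjusted p = 0.0068, and 0.42 ± 0.11, adjusted p = 0.0285).

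**Figure D2:**
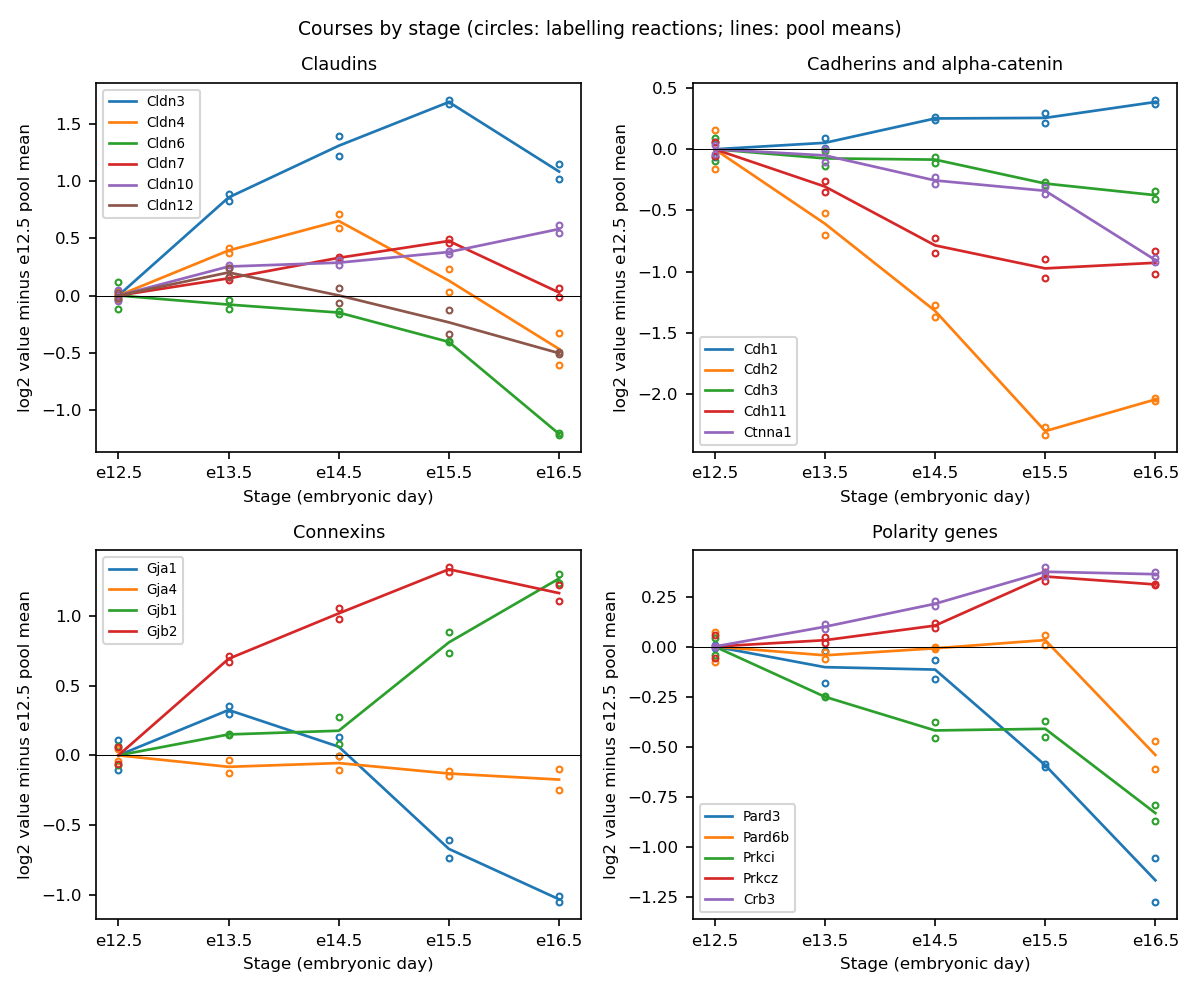
Log2 value minus the e12.5 pool mean (vertical axis) at each of 5 stages (horizontal axis) for claudins, cadherins with alpha-catenin, connexins and polarity genes; circles are the 2 labelling reactions of a pool and lines join pool means. Cldn3 climbs to e15.5 and drops at e16.5 while Cdh2 falls from e12.5 to e15.5, and the connexins Gja1 and Gjb1 part after e14.5.

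Of the other tight junction genes 1 of 5 fell (17% of all genes did) and 4 did not pass. Tjp1, the scaffold protein ZO-1, read 7.86 and 7.93 at e12.5, 8.09 and 7.94 at e13.5, 7.81 and 7.88 at e14.5, 7.76 and 7.66 at e15.5, and 7.19 and 7.16 at e16.5. The e16.5 reactions stood apart below the other 8, which lay between 7.66 and 8.09. Its slope of -0.69 ± 0.19 was just inside the threshold (limma adjusted p = 0.0435), and -0.29 without the e16.5 pool (adjusted p = 0.286). The call was also lost without the e13.5 pool (adjusted p = 0.109) or the e14.5 pool (adjusted p = 0.0538), and with arrays centred on their medians (adjusted p = 0.0532) or scaled by cyclic loess (adjusted p = 0.0571). It was further lost without the e12.5 array of reaction 2, the e14.5 array of reaction 1 or the e15.5 array of reaction 2 (adjusted p = 0.0572, 0.0519 and 0.0572).

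Tjp3, the related scaffold ZO-3, which is found in epithelia, had another course on its brightest probe set. It read 5.08 and 5.15 at e12.5, 5.41 and 5.53 at e13.5, 5.56 and 5.55 at e14.5, 6.16 and 5.98 at e15.5, and 5.47 and 5.46 at e16.5. Both e15.5 reactions were the highest of the 10, and the step to e16.5 was a 1.52-fold drop. The line over 5 stages gave 0.52 ± 0.26 (limma adjusted p = 0.169), and that over the first 4 stages 1.18 ± 0.18 (adjusted p = 0.0072). The dimmer Tjp3 probe sets, on chip C and with the suffix of a shared sequence, varied less. One had pool means of 3.84, 3.95, 4.03, 4.07 and 3.70 (-0.06 ± 0.15), and the other 3.45, 3.59, 3.54, 3.56 and 3.45 (-0.01 ± 0.09). Neither passed.

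The membrane proteins and the linker of the tight junction also had their highest pool mean at e15.5 on their brightest probe sets. Occludin (Ocln) had pool means of 5.37, 5.82, 5.97, 6.16 and 5.79, the junctional adhesion molecule F11r had 8.25, 8.51, 8.64, 8.85 and 8.43, and cingulin (Cgn), which ties the junction to actomyosin, had 8.17, 8.27, 8.38, 8.53 and 8.23. Their slopes over 5 stages were 0.47 ± 0.24, 0.28 ± 0.21 and 0.15 ± 0.15, and none passed. Without the e16.5 pool Ocln (1.01 ± 0.15, limma adjusted p = 0.0162) and F11r (0.77 ± 0.11, adjusted p = 0.014) passed and Cgn (0.48 ± 0.14) did not. A probe set of Ocln on chip B rose over all 5 stages (0.39 ± 0.11, adjusted p = 0.0398). Dimmer probe sets of the other genes differed: one of F11r, marked as incomplete, had pool means of 6.45, 6.68, 6.49, 6.34 and 6.05 (-0.45 ± 0.15, adjusted p = 0.0588), and one of Cgn had a slope of -0.20 ± 0.11 (adjusted p = 0.198).

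The adherens junction genes had calls in both directions: 1 of 6 rose (11.9% of all genes did), 4 fell (17% did) and 1 did not pass. Cdh2, the cadherin of neural and mesenchymal cells that early pancreatic epithelium is also known to carry, had the largest change of any member. It read 6.86 and 7.18 at e12.5, 6.32 and 6.50 at e13.5, 5.65 and 5.75 at e14.5, 4.69 and 4.75 at e15.5, and 4.99 and 4.96 at e16.5. No reactions of different stages overlapped, and the level dropped in each step to e15.5, by 0.61, 0.71 and 0.98 on the log2 scale. The fitted change was -2.31 ± 0.31 (limma adjusted p = 0.00419), a 4.97-fold decrease, and -3.05 ± 0.18 without the e16.5 pool (adjusted p = 0.00088). From e14.5 the pool means lay below the median of the chip, so the decrease may be understated.

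Cdh1, the cadherin that defines epithelial adherens junctions, read 6.63 and 6.75 at e12.5, 6.78 and 6.70 at e13.5, 6.95 and 6.93 at e14.5, 6.90 and 6.99 at e15.5, and 7.09 and 7.06 at e16.5. The reactions of e12.5 and e13.5 overlapped, and those of e16.5 were the highest. The rise of 0.39 ± 0.09 (limma adjusted p = 0.0269) kept its size without the e12.5, e13.5 or e16.5 pool (0.37 to 0.40) and missed the threshold in each case (adjusted p = 0.115, 0.0896 and 0.107). Using reaction 1 alone or reaction 2 alone also lost the call (adjusted p = 0.0524 and 0.0657).

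Cdh3, which lies on the same stretch of chromosome 8 as Cdh1 (GRCm38.p6: Cdh3 at 106510852 to 106556911, Cdh1 at 106603350 to 106670247), went the other way. It read 7.60 and 7.41 at e12.5, 7.49 and 7.37 at e13.5, 7.39 and 7.44 at e14.5, 7.23 and 7.22 at e15.5, and 7.10 and 7.16 at e16.5. The 3 early stages overlapped, and e15.5 and e16.5 lay below all of them. The change of -0.38 ± 0.09 (limma adjusted p = 0.0307) missed the threshold without the e12.5, e13.5, e15.5 or e16.5 pool (adjusted p = 0.0918, 0.0882, 0.0593 and 0.144) and after quantile scaling (0.0558) or cyclic loess (0.0713). It missed it too without the e12.5 array of reaction 1 (-0.31, adjusted p = 0.0773). The other probe set of Cdh3 did not pass and pointed upward (0.23 ± 0.10, adjusted p = 0.138).

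Cdh11, a cadherin of mesenchyme, read 4.95 and 5.07 at e12.5, 4.66 and 4.75 at e13.5, 4.16 and 4.28 at e14.5, 3.96 and 4.11 at e15.5, and 3.99 and 4.17 at e16.5. All reactions of e12.5 and e13.5 stood above those of the last 3 stages, which lay between 3.96 and 4.28. The change was -1.01 ± 0.17 (limma adjusted p = 0.00894), with a second probe set, on chip C, at -1.25 ± 0.10 (adjusted p = 0.00046). The call of the brighter probe set was lost without the e12.5 pool (-0.82, adjusted p = 0.0617).

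Ctnna1, alpha-catenin, which couples the cadherin complex to actin, had a pool mean of 8.04 (SD 0.05, n = 2 reactions) at e12.5 and read 8.04 and 7.94 at e13.5, 7.76 and 7.81 at e14.5, 7.67 and 7.73 at e15.5, and 7.12 and 7.15 at e16.5. The last step was the largest, at -0.57. Its fitted change was -0.84 ± 0.16 (limma adjusted p = 0.014), and -0.49 without the e16.5 pool (adjusted p = 0.054). A chip C probe set fell too (-0.81 ± 0.15, adjusted p = 0.00928). Ctnnd1, the catenin that holds cadherins at the membrane, ranged from 9.17 to 9.33 over the 10 arrays and did not pass (-0.05 ± 0.09, adjusted p = 0.715). A dimmer probe set of Ctnnd1, whose suffix marks sequence shared with similar transcripts, dropped from 6.62 at e15.5 to 5.86 at e16.5 and did not pass either (-0.48 ± 0.27, adjusted p = 0.245).

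None of the 6 desmosome members passed over 5 stages (limma), and 2, Pkp2 and Dsg2, had an unadjusted p under 0.05, both with a positive slope. The desmosomal cadherin Dsg2 had a pool mean of 7.39 at e12.5, 7.93 at e13.5, 8.33 at e15.5 and 7.97 at e16.5, with reactions of 7.98 and 8.03 at e14.5, and desmoplakin (Dsp), which binds the filaments, had 7.15, 7.72, 7.83, 7.92 and 7.63. All 8 later reactions of both genes stood above both e12.5 reactions. Slopes were 0.63 ± 0.24 (adjusted p = 0.108) and 0.47 ± 0.25 (adjusted p = 0.214), and with e16.5 left out 1.16 ± 0.18 (adjusted p = 0.0157) and 0.97 ± 0.22 (adjusted p = 0.0488). The plaque protein gene Pkp2 had 0.35 ± 0.12 (adjusted p = 0.0611) on its brightest probe set and rose on 2 dimmer ones of chip A (1.66 ± 0.23 and 1.08 ± 0.13, adjusted p = 0.00493 and 0.00263). The former has the suffix of a shared sequence. Pkp2 did not pass on a further, dim chip A probe set (0.14 ± 0.11, limma adjusted p = 0.386). Its brightest probe set passed after quantile scaling (0.48, adjusted p = 0.0294) or cyclic loess (0.45, adjusted p = 0.0276), with p-values adjusted within its chip (adjusted p = 0.0449), without the e13.5 array of reaction 2 (adjusted p = 0.0439) and without the e16.5 array of reaction 1 (adjusted p = 0.044). Plakoglobin (Jup), shared by desmosomes and adherens junctions, the desmocollin Dsc2 and the plakophilin Pkp1 had slopes of -0.11 ± 0.20, 0.03 ± 0.14 and 0.18 ± 0.10. The Pkp1 probe set has the suffix of a sequence shared with other transcripts.

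The adhesion molecule Epcam and the Kunitz inhibitors Spint1 and Spint2, which hold membrane proteases such as matriptase in check, gave no call over 5 stages (limma), also at an unadjusted p under 0.05. On its brightest probe set Spint1 made the largest single step upward of any member. It read 6.40 and 6.26 at e12.5, 7.56 and 7.58 at e13.5, 7.29 and 7.39 at e14.5, 7.64 and 7.70 at e15.5, and 7.42 and 7.45 at e16.5. The pool mean of e13.5 was 2.37-fold that of e12.5, and from e13.5 on the reactions lay between 7.29 and 7.70. A line describes such a step poorly (0.93 ± 0.40, limma adjusted p = 0.138), and it passed without the e13.5 pool (1.23, adjusted p = 0.0463). The dim chip B probe set of Spint1 had pool means of 4.30, 4.48, 4.63, 4.61 and 4.59, with a first step of 0.18. It did not pass (0.29 ± 0.12, limma adjusted p = 0.103). Spint2 ranged from 4.34 to 4.83, with both e15.5 reactions the highest (0.21 ± 0.14). The probe sets of Epcam disagreed: the brightest, on chip C and marked as incomplete, did not pass (-0.14 ± 0.10), while the chip A probe set rose by 0.95 ± 0.18 (adjusted p = 0.0133), with pool means of 5.05, 5.59, 5.83, 6.05 and 6.00.

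Of the 4 connexins 2 rose (11.9% of all genes did), 1 fell (17% did) and 1 did not pass. Gjb1, the main connexin of liver and known in pancreatic acini, read 5.79 and 5.65 at e12.5, 5.87 and 5.88 at e13.5, 5.80 and 6.00 at e14.5, 6.45 and 6.61 at e15.5, and 6.96 and 7.02 at e16.5. The values up to e14.5 lay between 5.65 and 6.00 and those of e15.5 and e16.5 above them, with a step of 0.63 to e15.5. Its fitted rise was 1.28 ± 0.20 (limma adjusted p = 0.00713), a 2.43-fold increase, and 0.98 without the e16.5 pool (adjusted p = 0.0583).

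Gjb2, its partner in mixed channels, rose from the start. It read 5.94 and 5.82 at e12.5, 6.59 and 6.55 at e13.5, 6.85 and 6.94 at e14.5, 7.23 and 7.20 at e15.5, and 6.98 and 7.10 at e16.5. The first step was 1.62-fold, and both e16.5 reactions lay below both of e15.5. The change was 1.19 ± 0.25 (limma adjusted p = 0.018). Leaving out e16.5 gave 1.73 ± 0.18 (adjusted p = 0.0055), and leaving out e12.5 gave 0.69 (adjusted p = 0.1).

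Gja1, the connexin of heart, mesenchyme and many embryonic cells, read 8.42 and 8.63 at e12.5, 8.88 and 8.82 at e13.5, 8.66 and 8.52 at e14.5, 7.92 and 7.79 at e15.5, and 7.52 and 7.47 at e16.5. All 4 late reactions lay below the 6 earlier ones, and the step to e15.5 was -0.73. The change was -1.22 ± 0.30 (limma adjusted p = 0.0296), and a second probe set fell by 1.11 on the log2 scale (adjusted p = 0.0361). The main probe set carries the suffix of a shared sequence. It missed the threshold without the e13.5, e15.5 or e16.5 pool (-1.06, -1.17 and -0.91, adjusted p = 0.0666, 0.0701 and 0.216). Gja4, a connexin of arterial endothelium, ranged from 6.55 to 6.84 (-0.16 ± 0.09, adjusted p = 0.228).

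The polarity genes also had calls in both directions, with 2 of 6 rising (11.9% of all genes did), 2 falling (17% did) and 2 not passing. Pard3, the scaffold of the Par complex, read 7.52 and 7.54 at e12.5, 7.51 and 7.35 at e13.5, 7.37 and 7.46 at e14.5, 6.94 and 6.93 at e15.5, and 6.47 and 6.25 at e16.5. The first 3 stages overlapped and the last 2 lay below them. Its brightest probe set gave -1.13 ± 0.20 (limma adjusted p = 0.00608), and -0.72 without the e16.5 pool (adjusted p = 0.0609). The 5 probe sets of Pard3 disagreed: another fell (-0.56 ± 0.12, adjusted p = 0.015), 1 rose (0.35 ± 0.11, adjusted p = 0.0471), 2 did not pass, and their mean did not pass (-0.39, adjusted p = 0.0741).

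The atypical protein kinase C genes, whose products are the kinase of that complex, moved apart. Prkci read 8.77 and 8.68 at e12.5, 8.48 and 8.47 at e13.5, 8.27 and 8.35 at e14.5, 8.35 and 8.28 at e15.5, and 7.94 and 7.85 at e16.5. The change was -0.73 ± 0.12 (limma adjusted p = 0.00532), and -0.56 with e16.5 left out (adjusted p = 0.0688). Its other probe set had -0.47 ± 0.16 and did not pass (adjusted p = 0.0717).

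Prkcz read 6.69 and 6.80 at e12.5, 6.79 and 6.76 at e13.5, 6.86 and 6.84 at e14.5, 7.12 and 7.07 at e15.5, and 7.05 and 7.06 at e16.5. The rise of 0.38 ± 0.11 (limma adjusted p = 0.0368) was the smallest that passed among rising members, and a chip A probe set rose by 0.35 ± 0.10 (adjusted p = 0.042). The call was lost with any of the 5 pools left out (changes of 0.32 to 0.45, adjusted p = 0.0567 to 0.113) and without the e12.5 array of reaction 1 (adjusted p = 0.0586). The remaining probe sets of Prkcz did not pass. A dimmer chip A probe set among them pointed downward (-0.11 ± 0.09, limma adjusted p = 0.413).

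Crb3, the Crumbs protein of epithelia, read 7.86 in both reactions at e12.5, 7.95 and 7.97 at e13.5, 8.06 and 8.09 at e14.5, 8.21 and 8.26 at e15.5, and 8.21 and 8.23 at e16.5. Each step up to e15.5 left no overlap between stages, and e16.5 overlapped e15.5. The rise was 0.40 ± 0.09 (limma adjusted p = 0.0252), with a shared-sequence probe set at 0.46 ± 0.13 (adjusted p = 0.042). It missed the threshold without the e12.5 pool (0.38, adjusted p = 0.131) or the e13.5 pool (0.39, adjusted p = 0.0819), and with reaction 1 alone (adjusted p = 0.0597). Pard6b, the adaptor of the Par complex, lay between 7.00 and 7.15 up to e15.5 and at 6.60 and 6.46 at e16.5; its slope was -0.40 ± 0.18 (adjusted p = 0.143), and it passed without the e15.5 pool (-0.54, adjusted p = 0.0354). Ezrin (Ezr), which ties the apical membrane to actin, ranged from 7.67 to 8.16 (-0.23 ± 0.13, adjusted p = 0.226).

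On their brightest probe sets, 12 members had pool means that were higher at every later stage than at e12.5 and lower at e16.5 than at e15.5. These 12 were Cldn3, Cldn7, Ocln, Tjp3, F11r, Cgn, Dsp, Dsg2, Spint1, Gjb2, Prkcz and Crb3, 29.3% of the members against 9.14% of all genes. In all, 16 members had their highest pool mean at e15.5 (39% against 14.2%). Besides the 12 they included Cldn8, Jup, Spint2 and Pard6b. Another 8 were highest at e12.5 (27.4% of all genes) and 7 at e16.5 (34.6%). Of the 12, Gjb2, Prkcz and Crb3 passed the line test as rising, and the last step of Prkcz (-0.04) and of Crb3 (-0.01) was small, with overlapping reactions for Crb3. The outline was noticed in the values and is given as a description with no test.

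**Figure D3:**
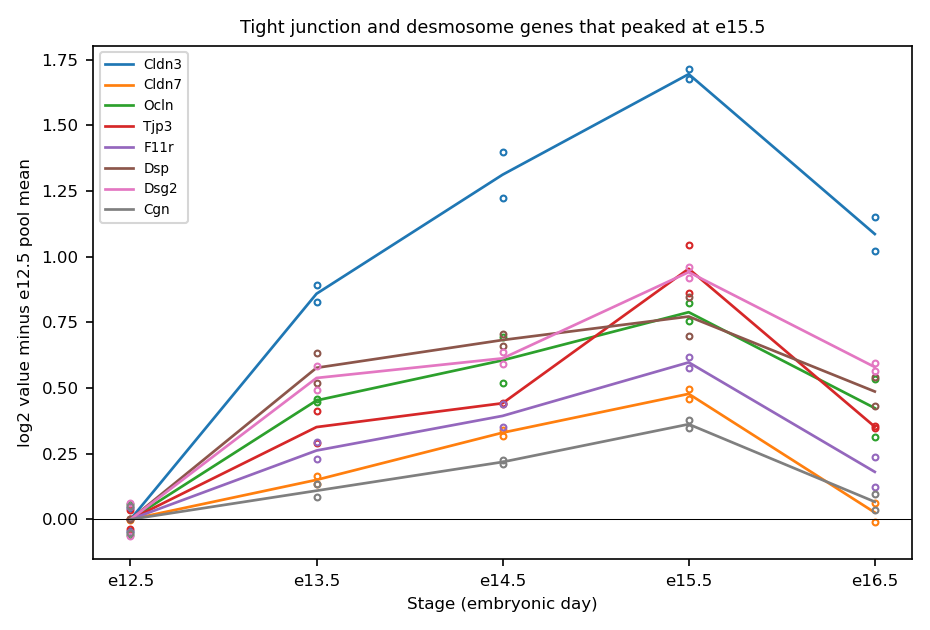
Log2 value minus the e12.5 pool mean (vertical axis) at 5 stages (horizontal axis) for 8 tight junction and desmosome genes with their highest mean at e15.5; circles are labelling reactions and lines join pool means. Cldn3 reaches 1.70 at e15.5, and all 8 genes are lower at e16.5 than at e15.5.

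Steps between consecutive stages were counted as well. Both reactions of e13.5 lay above both of e12.5 in 19 members (46.3% against 28.4% of all genes), and e14.5 lay above e13.5 in 22 (53.7% against 26.4%) and below it in 10 (24.4% against 27.3%). From e14.5 to e15.5 the members split, 17 above (41.5% against 27.7%) and 16 below (39% against 31%). At e16.5 both reactions lay below both of e15.5 in 28 members (68.3% against 34.3%) and above in 8 (19.5% against 29.5%). The 8 were Cdh1, Cdh2, Cldn1, Cldn2, Cldn5, Cldn10, Pkp1 and Gjb1.

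**Figure D4:**
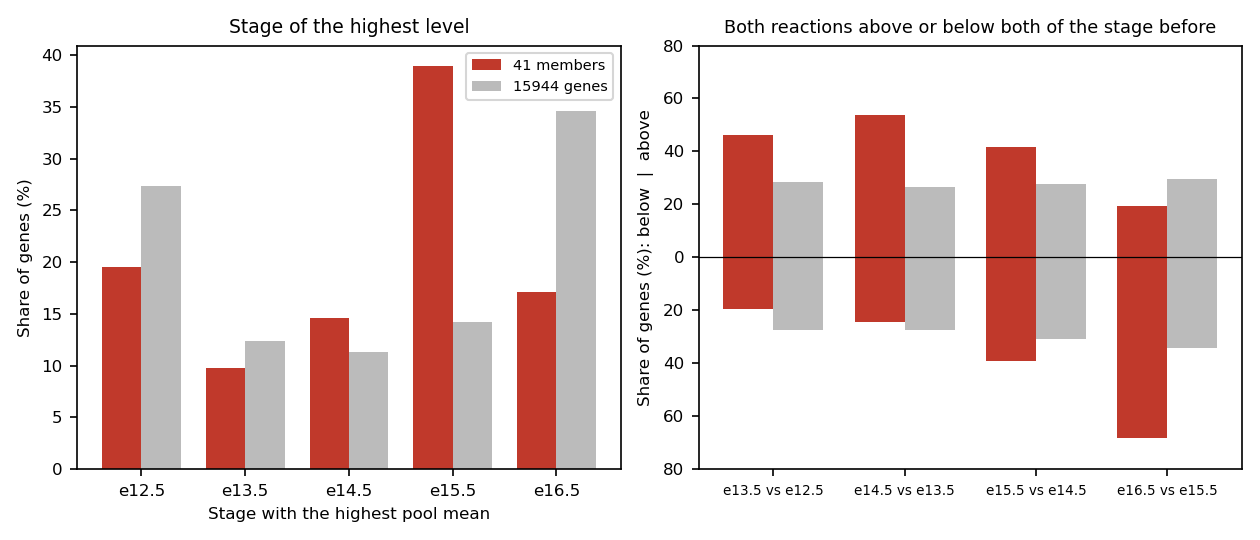
Share in percent (vertical axes) of the 41 members and of all 15944 genes, on the left by the stage with the highest pool mean, on the right by step, for genes whose 2 reactions lay above (upward) or below (downward) both of the stage before. At e15.5 the bar of the members stands at 39% and that of all genes at 14.2%, and below the line at e16.5 they reach 68.3% and 34.3%.

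Few of these steps were large: 4 members had a step up of at least 1.5-fold (2.23% of all genes) and 6 a step down (3.63%). From e12.5 to e13.5 a step up of at least 1.5-fold was seen in 3 members, Cldn3, Spint1 and Gjb2 (0.439% of all genes), and a drop of that size in 1, Cdh2 (0.646%). From e13.5 to e14.5 there was no such step up (0.464% of all genes) and 1 drop, Cdh2 again (0.345%). At e15.5 there was 1 step up, of Gjb1 (1.4%), and there were 2 drops, of Cdh2 and Gja1 (0.69%). At e16.5 no member was 1.5-fold higher than at e15.5 (0.891%), and 4 dropped: Cldn3, Cldn4 (1.51-fold), Cldn6 (1.75-fold) and Tjp3 (2.38%). With 1 pool per stage a step has no test, and at a 2-fold minimum 1 step up, that of Spint1, and no drop was left. Only the brightest probe set of each gene was counted, and others could differ. On chip A, a second probe set of Cldn6 dropped by 1.39 on the log2 scale at e16.5. One of Cldn7 stepped up by 0.65 at e13.5 and down by 0.81 at e16.5, and one of Pkp2 stepped up by 1.01 at e15.5. The dimmer probe sets of Cldn3 and Spint1 stepped up by only 0.11 and 0.18 at e13.5.

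The e16.5 pool therefore bore on the counts above. Without it 9 members rose, 22% against 4.73% of all genes: Cldn3, Cldn7, Ocln, Tjp3, F11r, Dsp, Dsg2, Gjb2 and Crb3. Crb3 had the smallest change of them, 0.49 ± 0.11 (limma adjusted p = 0.0439), and Dsp the highest adjusted p, 0.0488. Falls were then called for 2 members, Cdh2 and Cdh11 (-1.36 ± 0.14, adjusted p = 0.0048), 4.88% against 8.14%.

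Marker lists of cell types moved over the same stages, and their part in the changes of the junction genes was not tested. In log2 units, the mean level of 6 epithelial markers (keratins, Muc1 and Cd24a) was 8.05 at e12.5 and 9.29 at e16.5, and 4 of them rose. The mean of 8 acinar markers went from 6.97 to 11.31, all 8 rising, and that of 8 endocrine markers from 6.54 to 8.29, of which 4 rose, 2 fell and 2 did not pass. Both means continued upward from e15.5 to e16.5, where 28 junction genes went down, and the epithelial mean went from 9.14 to 9.29. The endocrine markers were split in this last step. Sst, Iapp, Ins2 and Pcsk1 moved up (0.36 to 0.72), and Chga, Gcg, Pax6 and Isl1 moved down (-0.15 to -0.29). Among the epithelial markers, Krt7 (-0.26) and Krt19 (-0.05) moved down, and Cd24a, Krt8, Krt18 and Muc1 moved up (0.08 to 0.44). Of 10 mesenchymal markers 4 fell and 1 rose (7.87 to 7.45). Of 7 nerve and Schwann cell markers 5 fell (7.47 to 6.32), and of 10 endothelial markers 4 fell (6.85 to 6.66). Cdh2, Cdh11 and Gja1 fell over these stages, and the endothelial genes Cldn5 and Gja4 did not pass. Red cell markers went from 9.15 to 6.97 (3 of 5 fell), and the mean of 7 leukocyte markers was 5.57 at e12.5, 5.18 at e15.5 and 5.90 at e16.5 (1 fell and 6 did not pass). Of that last step S100a8 (2.84) and Lyz2 (1.19) had the most, named here after their values were seen, and the other 5 markers moved by 0.09 to 0.28. Of 6 mesothelial markers 2 rose and 2 fell (5.81 to 5.79). The log2 scale has no zero and the files no detection calls, so no marker can be called absent.

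A wider list of 112 junction, polarity and related genes gives the setting; 100 were measured, of which 10 rose (11.9% of all genes did), 24 fell (17% of all genes) and 66 did not pass, with a median change of 0.00. The share that rose was thus near that of all genes. Among 18 other tight junction genes 3 rose and 3 fell. Among 17 other adherens junction genes 6 fell and none rose (limma), also at an unadjusted p under 0.05. Among 8 other desmosome genes 2 rose and none fell, with the same counts unadjusted. Of 8 other gap junction genes 2 fell and none rose (limma), where 2 had an unadjusted p under 0.05 upward. Of 25 other polarity genes 9 fell and none rose (limma; at an unadjusted p under 0.05 it was 13 and 0). The polarity list holds Llgl1, a basolateral polarity protein, with pool means of 9.51, 9.46, 9.19, 8.81 and 8.32 (-1.21 ± 0.15, adjusted p = 0.00352). Rdx, a relative of ezrin, fell from 8.21 to 7.18 (-1.13 ± 0.12, adjusted p = 0.00202) and Pard6g from 8.50 to 7.37 (-1.10 ± 0.10, adjusted p = 0.0005). The junctional adhesion molecule Jam3 fell from 6.03 to 4.90 (-1.29 ± 0.16, adjusted p = 0.00342).

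Of the rises in the wider list, the 5 largest were in Perp, Hpn, Prss8, Cldn18 and Ehf. Perp, a desmosomal membrane protein, had pool means of 4.73, 4.92, 5.77, 7.23 and 7.50 (3.13 ± 0.33, limma adjusted p = 0.00192). The membrane proteases hepsin (Hpn, 1.88 ± 0.14, adjusted p = 0.000655) and prostasin (Prss8, 1.52 ± 0.14, adjusted p = 0.00121), which the Kunitz inhibitors restrain, rose in a steady course, from 5.95 to 7.73 and from 7.09 to 8.49. On the brightest probe set of Spint1 the level was up by e13.5 and varied little after, and its dim probe set had a smaller first step. Cldn18 (0.72 ± 0.12, adjusted p = 0.00445; below its chip median) and the transcription factor Ehf (0.65 ± 0.18, adjusted p = 0.0323) rose as well.

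Of the 7 repressors of Cdh1 listed 4 fell, none rose and 3 did not pass (limma, with 5 and 0 at an unadjusted p under 0.05). Of all genes 17% fell and 11.9% rose. Snai2 fell from a pool mean of 9.11 to one of 7.32 over the stages (limma -1.99 ± 0.19, adjusted p = 0.00145), Zeb1 from 7.20 to 6.49 (-0.88 ± 0.21, adjusted p = 0.0268), Twist1 from 5.19 to 4.41 (-0.72 ± 0.13, adjusted p = 0.0104) and Snai1 from 6.09 to 5.61 (-0.56 ± 0.13, adjusted p = 0.0261). Twist1 also stands in the list of mesenchymal markers. Zeb2 (-0.45 ± 0.20), Twist2 (-0.36 ± 0.12) and Tcf3 (0.00 ± 0.10) did not pass. Of the epithelial regulators, Ovol1 rose (0.54 ± 0.12, adjusted p = 0.0135). Ovol2 (0.07 ± 0.10), Grhl1 (0.23 ± 0.11), Grhl2 (-0.05 ± 0.15), Grhl3 (0.34 ± 0.13), Esrp1 (0.58 ± 0.19) and Esrp2 (0.27 ± 0.10) did not pass. Over the same days Cdh1 rose by 0.39 and Cdh2 fell by 2.31 on the log2 scale. Whether the repressors or regulators had a part in either change was not tested.

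Where a member had several probe sets, as 29 did, they did not always give the same call. Of the 16 members that passed, another probe set passed the same way for Cdh11, Ctnna1, Gja1, Prkcz and Crb3, and none did for Cldn6, Tjp1, Cdh3 and Prkci. Pard3 had calls in both directions. For Cldn3, Cldn8, Ocln, Pkp2 and Epcam a dimmer probe set rose where the brightest did not pass. The remaining 14 of the 29 had no passing probe set, and 12 members had a single one.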

How the data were processed

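The deposited values are in log2 units and come from RMA, per the submitters' processing notes; no version is stated, and the log base was inferred from the range of the values. RMA brings the arrays of a chip to nearly the same distribution, so a change in total RNA per cell cannot be seen. The medians of the arrays spanned 5.71 to 5.76 on chip A, 5.26 to 5.31 on chip B, and 3.99 to 4.02 on chip C. The 10 arrays of a chip come from 5 pools, and the number of pools limits precision.

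Gene symbols came from the platform annotation and were updated through RefSeq: of 36701, 29131 had 1 symbol, 724 several and 6846 none. The reactions of a stage were averaged, and limma 3.58.1 in R 4.3.3 fitted a line over embryonic day to the 5 pool means of each chip (eBayes); adjustment ran over all 3 chips at once (Benjamini-Hochberg, threshold 0.05). P-values measure the scatter of pools around that line. Steps between stages have no test and were counted from 1.5-fold. Reaction numbers do not pair samples: deviations of same-numbered arrays from their stage means correlated at -0.18 to 0.11 over 30 pairs of stages.

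Members and lists were chosen with earlier results of these data known. All measured members are named; those with a passing slope or a step of 1.5-fold have their values at every stage. Of the wider list the 5 largest passing slopes in each direction, the repressors of Cdh1 and the Grhl, Ovol and Esrp genes are named, and marker lists are given as counts and levels. Alternatives were other scalings, a brightness filter, an intensity trend, adjustment within chips, other treatments of reactions and probe sets, left-out pools and arrays, and e16.5 against e12.5. A comparison of claudin protein sequences was not made.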

Additional observations from a re-analysis of the deposited data

How the results depend on the processing

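None of the 16 slopes that passed changed sign under any alternative run; slopes that did not pass could, as that of Cldn4 did with e16.5 left out (0.26). Of members, 6 rose and 10 fell; with pools or arrays left out these counts ran from 1 to 9 and from 2 to 10, with 1 rise when e12.5 was left out, 2 falls when e16.5 was, and 6 falls when e13.5 was. Of the wider list 10 rose and 24 fell, with 6 to 13 and 15 to 26 so. With the 10 arrays fitted, 10 members rose with the pool as a random block, 10 with the replicate block and 12 without that block. Of the wider list, 22 and 24 genes rose with the replicate block and without it. The fits with and without the replicate block treat reactions of 1 pool as separate samples. The random-block fit models them as correlated, with 1 correlation for all probe sets of a chip. For e16.5 against e12.5 over 10 arrays, at least 2-fold, 4 members fell, and 3 genes of the wider list rose and 5 fell. With bright probe sets only, 6 of the wider list rose. At a 2-fold minimum 1 member had a step up and 0 a step down, against 4 and 6 at 1.5-fold. Reaction 1 alone lost the calls of Tjp1, Cdh1, Gja1 and Crb3, and reaction 2 alone those of Cldn12, Cdh1, Cdh3 and Prkcz. Averaging the probe sets of each gene lost Tjp1, Cdh3, Pard3 and Prkcz and gained Cldn3, Cldn8 and Pkp2. Counts of members lower at e16.5 than at e15.5 (24 to 29) and highest at e15.5 (14 to 17) were checked under alternatives chosen after seeing the data. Where values differ between settings, the cause was not tested. Without detection calls, dim probe sets may understate a change.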
